A study of Mus musculus with 12 samples.

Results

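The Frizzled receptors are encoded by 10 genes in the mouse, Fzd1 to Fzd10, and all 10 were found by gene symbol among the 54532 genes listed for each of 12 RNA-seq libraries of mouse intestine. The members were taken by name alone, whatever their level. The study asked what the loss of ieCtnnb1, an intestinal enhancer upstream of Ctnnb1 (the gene of β-catenin), does to Wnt signaling in normal and tumor tissue. Small intestinal crypts were profiled in 3 libraries from wild-type mice and 3 libraries from ieCtnnb1KO mice, in which both copies of the enhancer had been deleted with CRISPR/Cas9. Colon tumors were profiled in 3 libraries from APCmin/+ mice, which carry a nonsense mutation in a single copy of Apc, and in 3 libraries from APCmin/+;ieCtnnb1KO mice, which carry both changes. All mice were adults (5 months old in the legends on colon tumors) that had received no treatment. The study's legends give 3 mice for each group, while the labels only number the libraries, and the p-values given here measure the spread between these libraries.

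Frizzled proteins are membrane receptors that bind Wnt ligands through a cysteine-rich domain outside the cell and, together with the coreceptors LRP5 and LRP6, recruit Dishevelled so that β-catenin escapes degradation. In the intestine this signal maintains the stem cells at the crypt base and guides Paneth cell maturation, and in Apc-mutant tumors β-catenin accumulates downstream of the receptors. The amount of receptor at the cell surface is limited by the ubiquitin ligases RNF43 and ZNRF3, which R-spondins and their LGR receptors hold back, and some Frizzled receptors also act in planar cell polarity, which orients cells within a tissue without β-catenin.

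Expression is given as FPKM, the number of fragments on a gene set against its length and the sequencing depth, so levels of genes of different length can be compared. Between 14457896 and 16156712 fragments lay on genes in the 12 libraries. Ctnnb1 itself had an FPKM of 121, 134 and 123 in wild-type crypts and 102, 104 and 105 in ieCtnnb1KO crypts, and of 299, 364 and 358 in APCmin/+ tumors and 279, 248 and 250 in APCmin/+;ieCtnnb1KO tumors. All knockout libraries lay below all control libraries of their tissue. In either direction, 11.9% of all tested genes in crypts and 22.1% in tumors did not overlap. The genotypes were compared within each tissue with limma on log2(FPKM + 0.5), which understates the fold change of genes with a low FPKM, over every gene whose FPKM averaged 0.5 or more, and adjusted p-values were taken over all of these genes with a threshold of 0.05. With 3 libraries in each group, the smallest two-sided p of an exact permutation test is 0.1. For Ctnnb1 the log2 fold change was -0.277 in crypts (limma adjusted p = 0.849) and -0.387 in tumors (limma adjusted p = 0.303). The tables of the 2 tissues were normalized separately, so levels in crypts and tumors are set side by side without a test. Tissue, Apc genotype, cell isolation and table cannot be told apart. The same holds where the effect of the deletion is compared between the tissues. In bulk RNA, fewer cells of a type and less RNA per cell cannot be told apart either.

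The 10 genes fall into groups of close relatives by their coding sequence. Fzd1, Fzd2 and Fzd7 were the closest, with 82% identical coding bases between Fzd1 and Fzd2, 78.6% between Fzd1 and Fzd7 and 78.5% between Fzd2 and Fzd7. Fzd5 and Fzd8 shared 76.2%, Fzd9 and Fzd10 71%, and Fzd3 and Fzd6 63.6%, while Fzd4 was nearest to Fzd1 and Fzd10, with 66.5% each. Gene structure followed these groups in part. The transcripts of Fzd1, Fzd2, Fzd7, Fzd8, Fzd9 and Fzd10 had 1 exon, those of Fzd4 and Fzd5 had 2, and those of Fzd3 and Fzd6 had 7. No stretch of 50 bases was shared between transcripts of different Frizzled genes (0% of stretches for each member), so reads of this length that match exactly cannot be assigned to the wrong Frizzled gene. Stretches shared with genes outside the family made up 16.6% of the Fzd5, 2.41% of the Fzd6, 0.165% of the Fzd4 and 0.0946% of the Fzd3 transcript. Those of Fzd4 and Fzd3 were shared with 430 and 143 genes, and those of Fzd5 and Fzd6 came from annotated genes on the opposite strand, Gm38058 at Fzd5 (1512 shared bases) and Gm26704 at Fzd6 (152 shared bases). The strand use in counting is not given in the sources used here, so reads of Fzd5 and Gm38058, or of Fzd6 and Gm26704, cannot be told apart where they overlap. Gm38058 had a mean FPKM of 0.0098 in crypts and 0.0212 in tumors, and Gm26704 had 0.00353 and 0.194. Fzd3 overlapped Gm27263 and Gm9086, both at 0 in both tissues.

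Promoter sequences from RefSeq (build GRCm38.p6, from 250 bases before to 50 bases after the RefSeq start) were matched for 6 of the 10 members, namely Fzd1, Fzd4, Fzd5, Fzd7, Fzd9 and Fzd10. The other members are Fzd2, Fzd3, Fzd6 and Fzd8. The promoters of Fzd5 (chr1:64737701-64738000, minus strand) and Fzd1 (chr5:4758167-4758466, minus strand) are printed 5′ to 3′ because these genes had the highest FPKM of the family in crypts and in tumors, respectively. The gene model used for FPKM ended at position 64737751 for Fzd5, within its window, and at 4758035 for Fzd1, so the whole Fzd1 window lay upstream of that model. Capitals mark CTTTGA, the core of the sequence that the TCF/LEF partners of β-catenin bind, and GGGCGG, a GC box, each on either strand.
Fzd5: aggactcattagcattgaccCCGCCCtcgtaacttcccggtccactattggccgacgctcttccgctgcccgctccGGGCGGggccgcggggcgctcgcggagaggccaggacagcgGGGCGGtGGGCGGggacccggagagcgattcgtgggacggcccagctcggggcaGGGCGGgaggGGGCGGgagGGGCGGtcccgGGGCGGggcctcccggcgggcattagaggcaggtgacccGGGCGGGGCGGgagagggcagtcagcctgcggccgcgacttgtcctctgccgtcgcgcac
Fzd1: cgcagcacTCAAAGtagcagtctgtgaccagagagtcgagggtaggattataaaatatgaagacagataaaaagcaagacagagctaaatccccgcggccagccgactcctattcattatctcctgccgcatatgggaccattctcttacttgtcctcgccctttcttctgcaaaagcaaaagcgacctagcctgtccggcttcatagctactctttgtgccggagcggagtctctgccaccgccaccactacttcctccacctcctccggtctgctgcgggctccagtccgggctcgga
The Fzd5 window held 10 matches to GGGCGG, no CTTTGA and 75.7% G or C, whereas the Fzd1 window held 1 CTTTGA, no GGGCGG and 54.0% G or C. Among the others, GGGCGG matched 7 times for Fzd7, 8 times for Fzd4 and once each for Fzd9 and Fzd10, and the share of G or C was 66.7%, 72.7%, 78.0% and 77.7%. Over all 32851 promoters of the table the median share of G or C was 52.7%, GGGCGG was present in 35.7% and CTTTGA in 16.0%. The longer form CTTTGAT, which contains CTTTGA, was present in 3.73% of all promoters and in 0 of the 6 Frizzled promoters. A match is a description of letters, not a binding site or a cause.

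Fzd5 led the family in crypts. Fzd5 encodes a receptor required for Paneth cells to mature and take their place at the crypt base. Its FPKM was 22.4, 19.6 and 17.3 in wild-type crypts and 20.8, 27.1 and 19.7 in ieCtnnb1KO crypts (means 19.8 ± 2.59 and 22.5 ± 3.99, SD, n = 3). The genotypes overlapped in FPKM, and Fzd5 ranked 1 of the 10 members in each of the 6 libraries. It made up 53.3% ± 2.90 (SD, n = 3) of the summed FPKM of the family in wild-type crypts, with 50.9% to 56.5% in single libraries, and 61.9% ± 5.82 (SD, n = 3) in ieCtnnb1KO crypts, with 57.8% to 68.6%. Among 22046 protein-coding genes, its mean in wild-type crypts held rank 2249, with 89.8% of them below it.

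Fzd7 and Fzd9 followed in each of the 6 crypt libraries. Fzd7, a receptor of Lgr5-positive intestinal stem cells, stood at an FPKM of 7.87, 5.74 and 6.18 for wild-type and 5.83, 5.08 and 4.65 for ieCtnnb1KO crypts. The groups overlapped, since the lowest wild-type library lay just below the highest knockout library. Fzd9, a relative of Fzd10 known from bone formation, ranked below Fzd7 with means of 4.03 FPKM in wild-type and 2.66 in ieCtnnb1KO crypts, and no library of Fzd9 reached the lowest library of Fzd7 in its own group. In both genotypes the libraries of Fzd5 did not overlap those of Fzd7, nor those of Fzd9 the libraries of Fzd2, the next member by mean, though the lowest knockout library of Fzd9 (2.25) was close to the highest of Fzd2 (2.13).

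The remaining members were low in crypts, and several could not be ordered. Fzd2, Fzd1, Fzd6 and Fzd4 had mean FPKM of 1.70, 1.49, 1.44 and 0.939 in wild-type crypts, and neighbors in this order overlapped, as did Fzd4 and Fzd8 (mean 0.841). Fzd2 is a close relative of Fzd1 and Fzd7, Fzd6 is known for orienting hair follicles through planar polarity, Fzd4 is the receptor for Norrin in retinal vessels, and Fzd8 is the nearest relative of Fzd5. Fzd3, which guides axons and acts with Fzd6 in neural tube closure, stood below them with 22, 26 and 27 fragments in wild-type and 15, 6 and 10 fragments in ieCtnnb1KO crypts. Fzd10 had 0, 0 and 4 fragments in wild-type crypts and 0, 3 and 1 in ieCtnnb1KO crypts, where 3 fragments, the limit that a count of 0 allows for counting error alone, corresponded to an FPKM of 0.0551 to 0.0657. Fzd10 was therefore at or near the limit of detection in crypts at this depth.

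**Figure D1:**
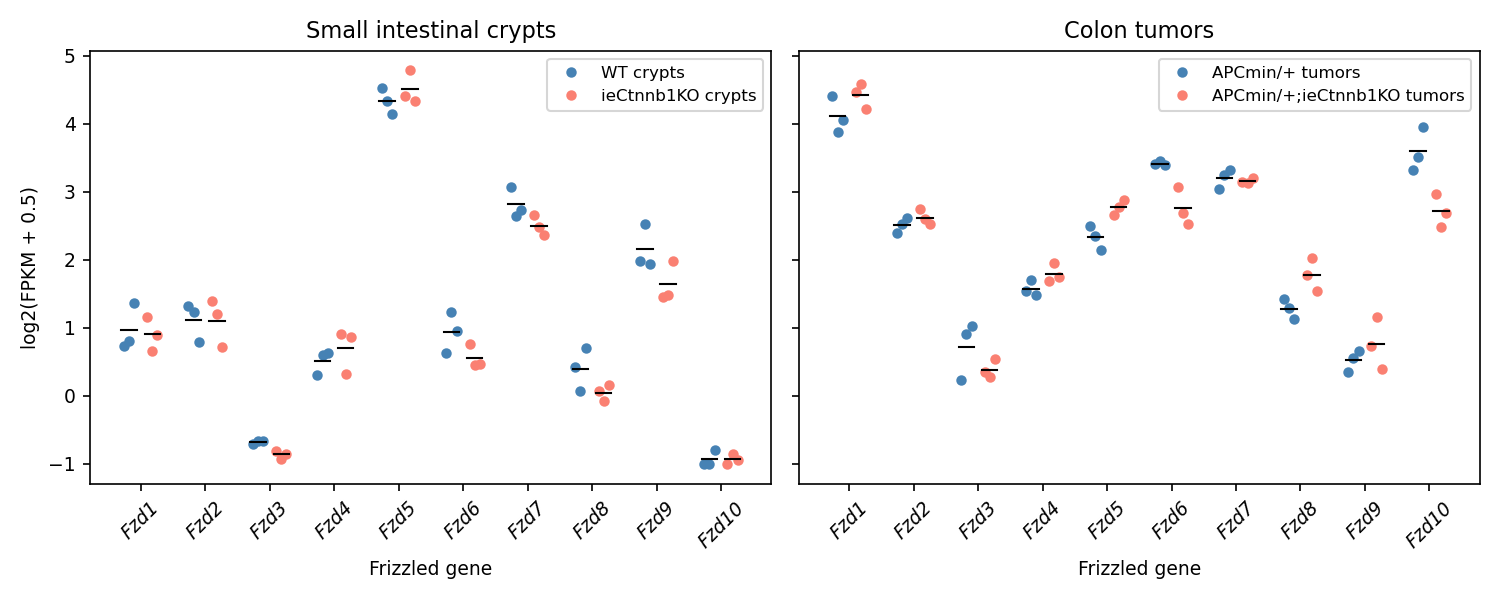
Level of the 10 Frizzled genes as log2(FPKM + 0.5) in the 12 libraries, with crypts and tumors in separate panels, 1 point per library colored by genotype and a line at the mean of each group. Fzd5 stands above all other members in the 6 crypt libraries (FPKM 17.3 to 27.1) and Fzd1 tops each of the 6 tumor libraries (FPKM 14.2 to 23.4), while Fzd10 is near an FPKM of 0 in crypts and between 5.10 and 15.0 in tumors.

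The order was different in colon tumors, where Fzd1 came first. Fzd1, the nearest relative of Fzd2, had an FPKM of 20.6, 14.2 and 16.1 in APCmin/+ tumors and 21.6, 23.4 and 18.1 in APCmin/+;ieCtnnb1KO tumors (means 17.0 ± 3.32 and 21.0 ± 2.68, SD, n = 3). APCmin/+ replicate 1 lay within the range of the knockout tumors, so the groups overlapped. Fzd1 ranked 1 of 10 in each of the 6 tumor libraries and made up 26.5% ± 5.02 (SD, n = 3) of the summed FPKM of the family in APCmin/+ tumors and 33.9% ± 2.45 (SD, n = 3) in the knockout tumors. Its mean in APCmin/+ tumors held rank 3325 of the 22046 protein-coding genes. The level of Fzd1 in crypts was 1.49 ± 0.497 in wild-type and 1.39 ± 0.324 in ieCtnnb1KO libraries (SD, n = 3).

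Below Fzd1, tumors held several members at similar levels. In APCmin/+ tumors Fzd10 (mean 11.8), Fzd6 (10.2), Fzd7 (8.77), Fzd2 (5.22) and Fzd5 (4.57) followed, and the libraries of Fzd1 and Fzd10, of Fzd10 and Fzd6, and of Fzd2 and Fzd5 overlapped. In knockout tumors Fzd7 came next after Fzd1 with an FPKM of 8.35, 8.29 and 8.69, and Fzd6, Fzd5, Fzd10 and Fzd2 formed a group with means from 5.67 to 6.36 whose neighbors overlapped. Fzd4, Fzd8, Fzd9 and Fzd3 were the lowest 4 in both genotypes, with means of 2.49, 1.94, 0.946 and 1.2 in APCmin/+ tumors and 2.97, 2.96, 1.24 and 0.811 in knockout tumors. The count of members above an FPKM of 1 was 5 to 8 in single crypt libraries and 8 to 10 in single tumor libraries.

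The summed FPKM of the family was 39.7, 37.3 and 33.9 in wild-type and 35.9, 39.5 and 33.2 in ieCtnnb1KO crypts. In tumors it was 64.0, 61.4 and 66.8 for APCmin/+ and 64.7, 64.0 and 57.2 for the knockout. The genotypes overlapped in both tissues, so the sum differed between them by less than the spread between libraries. The makeup differed between the tissues. Some shares also did not overlap between the genotypes, such as Fzd5 in crypts (50.9% to 56.5% against 57.8% to 68.6%). By fragments the nearest Fzd5 shares were 68.9% and 69.0%. In tumors Fzd10 had 14.8% to 22.5% against 7.97% to 11.3%. The shares of Fzd7 in crypts and Fzd1 in tumors overlapped, and no test was run on shares.

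**Figure D2:**
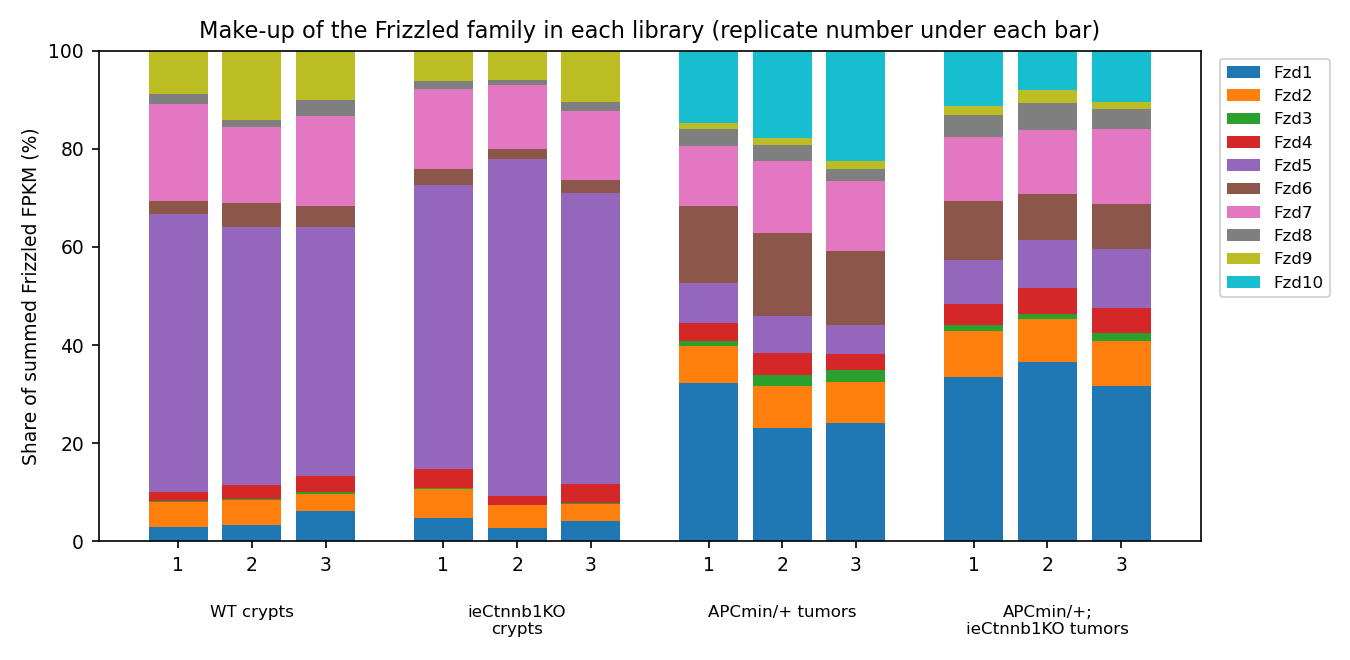
Share of each Frizzled gene in the summed FPKM of the family, in percent, as a stacked bar for each of the 12 libraries. Fzd5 takes 50.9% to 68.6% of each crypt bar, and Fzd1 takes 23.1% to 36.5% of each tumor bar, with the rest of the tumor bars divided among several members.

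In crypts, no Frizzled gene passed the test for a difference between wild-type and ieCtnnb1KO. Of the 10 members 8 passed the filter on FPKM, and Fzd3 and Fzd10 did not. With limma 0 of the 8 had an adjusted p under 0.05 (0% of 14176 genes), the lowest adjusted p was 0.849, and 0 had an unadjusted p under 0.05, against 5.85% of all tested genes (3.48% higher and 2.36% lower in the knockout). The groups did not overlap for 0 of the 8, against 11.9% of all tested genes, and of all 10 members Fzd3 was the only gene without overlap. Of the tested members 2 were higher and 6 lower in the knockout, with a median log2 fold change of -0.19 against 0.01 for all tested genes, and the directions of Fzd1 and Fzd2 turned with the scaling (3 higher and 5 lower with all libraries at the same total, 4 and 4 with quantile normalization).

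Fzd9 and Fzd7 had the lowest unadjusted p-values of the 8 tested members in crypts. Without the filter Fzd3, with 6 to 27 fragments in each library, had a log2 fold change of -0.183 (standard error 0.0651, limma unadjusted p = 0.0297, limma adjusted p = 0.864). For Fzd7 the log2 fold change was -0.31 (standard error 0.154, 95% interval -0.68 to 0.05, limma adjusted p = 0.860), and that of Fzd9 was -0.51 (standard error 0.222, limma adjusted p = 0.849). Both intervals reached 0. The FPKM of Fzd6 was 1.05, 1.85 and 1.44 in wild-type crypts against 1.2, 0.867 and 0.887 in ieCtnnb1KO crypts, and Fzd8 had 0.849, 0.547 and 1.12 in wild-type and 0.551, 0.446 and 0.617 in ieCtnnb1KO crypts. For both genes the groups overlapped, with 2 of 3 knockout libraries below all wild-type libraries for Fzd6 and 1 of 3 for Fzd8. Their log2 fold changes were -0.38 (standard error 0.214) and -0.35 (standard error 0.236), with limma adjusted p of 0.881 and 0.896. For the leading member, Fzd5, the log2 fold change was 0.18 (standard error 0.165, 95% interval -0.21 to 0.57, limma adjusted p = 0.909). For Fzd4 it was 0.18, for Fzd1 -0.07 and for Fzd2 -0.01, and those of Fzd1 and Fzd2 turned positive with quantile normalization. When a library was left out, the value ranged from 0.0388 (without knockout replicate 2) to 0.269 for Fzd5, from 0.0751 to 0.372 for Fzd4, from -0.683 to -0.324 for Fzd9, from -0.532 to -0.231 for Fzd6, from -0.516 to -0.199 for Fzd8 and from -0.4 to -0.188 for Fzd7.

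In colon tumors, 4 Frizzled genes had FPKM that did not overlap between APCmin/+ and APCmin/+;ieCtnnb1KO, and none of them passed adjustment. Fzd10 and Fzd6 were lower and Fzd5 and Fzd8 higher in the knockout tumors. All 10 members were tested. With limma 0 had an adjusted p under 0.05 (0% of 16743 genes) and 4 had an unadjusted p under 0.05, against 14.5% of all tested genes, namely 2 higher (8.46% of all tested genes) and 2 lower (6.0%). The groups did not overlap for the same 4 genes, against 22.1% of all tested genes. Over the 10 members 6 were higher and 4 lower, with a median log2 fold change of 0.16 against 0.01 for all tested genes, and these counts were the same with each of the 4 other scalings.

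Fzd10, which is little expressed in most adult tissues and has been pursued as an antibody target in synovial sarcoma, had the largest log2 fold change of the family. Its FPKM was 9.48, 10.9 and 15.0 in APCmin/+ tumors and 7.34, 5.10 and 5.94 in knockout tumors. All 3 knockout libraries lay below all 3 APCmin/+ libraries, and APCmin/+ replicate 3 was the highest. These values rest on 499, 583 and 730 fragments in APCmin/+ and 384, 266 and 301 fragments in knockout tumors. The mean was 11.8 ± 2.88 in APCmin/+ and 6.13 ± 1.13 in knockout tumors (SD, n = 3), a ratio of 0.520. The log2 fold change was -0.88 (standard error 0.198, 95% interval -1.35 to -0.41), with an unadjusted p of 0.00337 and an adjusted p of 0.269 from limma. Its share of the family was 18.3% ± 3.87 in APCmin/+ and 9.90% ± 1.74 in knockout tumors (SD, n = 3). The gene lies on chromosome 5 of GRCm38 (ENSMUSG00000081683, 128600844 to 128604093, plus strand).

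Fzd6 had the tightest APCmin/+ values of the 4 genes. Its FPKM was 10.1, 10.4 and 9.98 in APCmin/+ tumors and 7.87, 5.94 and 5.27 in knockout tumors. The knockout libraries all lay below, and they were spread more widely than the APCmin/+ libraries (SD 1.35 against 0.223, n = 3). The log2 fold change was -0.66 (standard error 0.146, 95% interval -1.0 to -0.31), with an unadjusted p of 0.00325 and an adjusted p of 0.269 from limma. The gene (ENSMUSG00000022297) spans 39006034 to 39038188 on the plus strand of chromosome 15 of GRCm38. Its nearest relative, Fzd3, had an FPKM of 0.671, 1.38 and 1.54 in APCmin/+ and 0.772, 0.711 and 0.952 in knockout tumors. For Fzd3 the lowest library was an APCmin/+ library, so the groups overlapped (log2 fold change -0.33, limma adjusted p = 0.544; -0.582 without APCmin/+ replicate 1, with a limma unadjusted p of 0.0243, and -0.183 without APCmin/+ replicate 3).

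The related genes Fzd5 and Fzd8 were both higher in knockout tumors. Fzd5 had an FPKM of 5.15, 4.62 and 3.94 in APCmin/+ tumors and 5.81, 6.36 and 6.88 in knockout tumors. The highest APCmin/+ library lay below the lowest knockout library. The log2 fold change of Fzd5 was 0.44 (standard error 0.127, 95% interval 0.14 to 0.74), with an unadjusted p of 0.0116 and an adjusted p of 0.285 from limma. Fzd5 (ENSMUSG00000045005) lies on the minus strand of chromosome 1 of GRCm38, from 64730558 to 64737751. Fzd8 (ENSMUSG00000036904) had an FPKM of 2.2, 1.94 and 1.68 in APCmin/+ tumors and 2.92, 3.56 and 2.42 in knockout tumors. Again all 3 knockout libraries were above all 3 APCmin/+ libraries, with a gap between the groups that was smaller than the range within either. The log2 fold change of Fzd8 was 0.50 (standard error 0.169, 95% interval 0.10 to 0.90), with an unadjusted p of 0.0223 and an adjusted p of 0.306 from limma. Its unadjusted p was under 0.05 in 2 of 6 fits that left out a library, while those of Fzd10, Fzd6 and Fzd5 were in all 6. For each of the 4 genes the exact permutation test gave p = 0.1, the smallest it can give here.

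**Figure D3:**
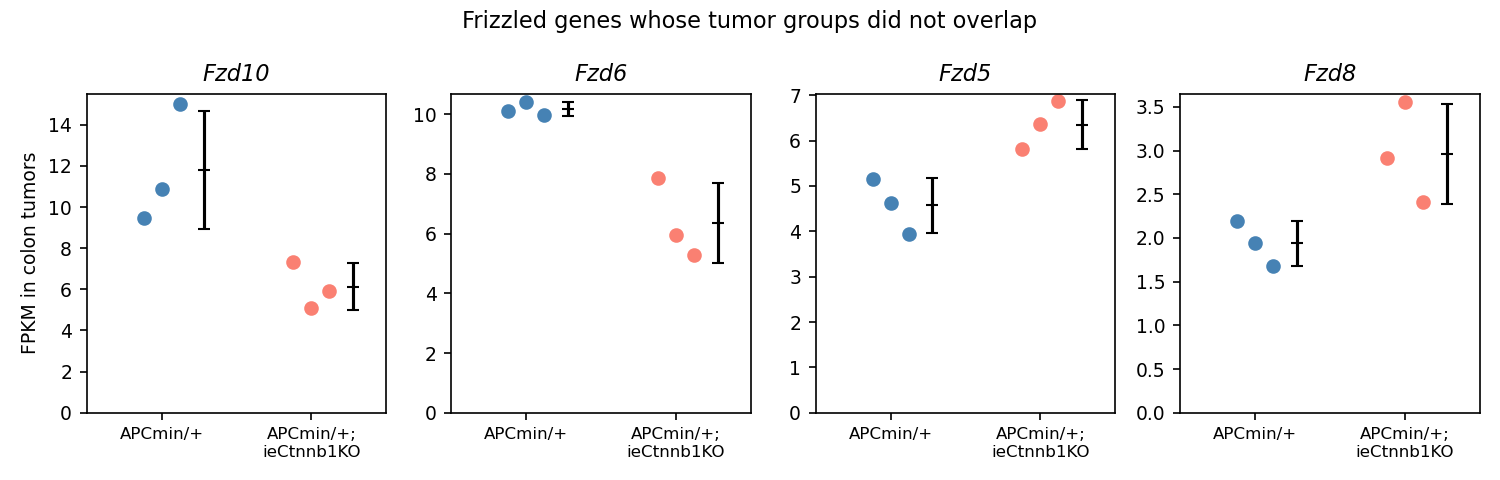
FPKM of Fzd10, Fzd6, Fzd5 and Fzd8 in colon tumors, with 1 point per library and, beside the points, a tick at the mean with bars of 1 SD (n = 3). The knockout libraries lie below the APCmin/+ libraries for Fzd10 and Fzd6 and above them for Fzd5 and Fzd8.

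The other members overlapped between the tumor genotypes. Fzd1 was the nearest to the 4 by p (limma unadjusted p = 0.0968), although the log2 fold change of Fzd3 was larger in size (-0.335). The log2 fold change of Fzd1 was 0.31 (standard error 0.161, limma adjusted p = 0.411), with 2 of 3 knockout libraries above all APCmin/+ libraries. Fzd4 had an FPKM of 2.41, 2.76 and 2.29 in APCmin/+ and 2.72, 3.36 and 2.84 in knockout tumors, and 2 of 3 knockout libraries were above all APCmin/+ libraries (log2 fold change 0.22, limma adjusted p = 0.471). Fzd9 had 0.781, 0.978 and 1.08 in APCmin/+ and 1.17, 1.74 and 0.811 in knockout tumors, with a log2 fold change of 0.24 (limma adjusted p = 0.652), which fell to 0.0365 without knockout replicate 2. The range with a library left out was 0.193 to 0.456 for Fzd1 and 0.139 to 0.282 for Fzd4. The values of Fzd2 and Fzd7, relatives of Fzd1, were close in both genotypes. Fzd2 had a log2 fold change of 0.11 (95% interval -0.16 to 0.37) and Fzd7 of -0.05 (95% interval -0.29 to 0.20).

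**Figure D4:**
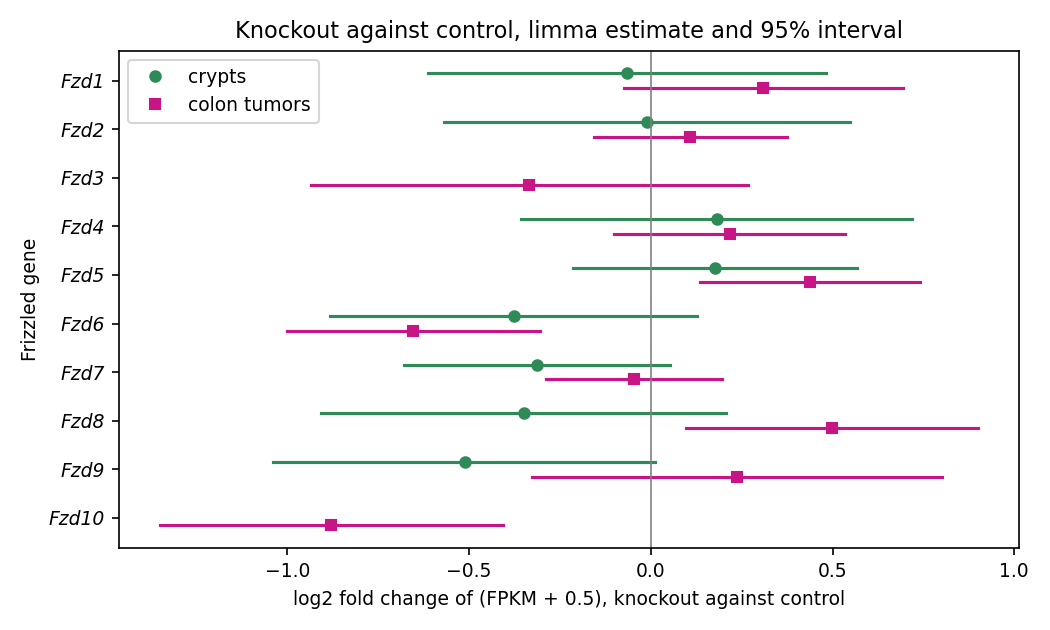
Log2 fold change (knockout minus control, of FPKM + 0.5) of the tested Frizzled genes in crypts (8 genes) and tumors (10 genes), as points with 95% intervals from limma. In tumors the intervals of Fzd10 and Fzd6 lie below 0 and those of Fzd5 and Fzd8 above 0, and in crypts all 8 intervals cross 0.

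Whether the effect of the enhancer deletion differed between the tissues was tested with limma for the 8 members that passed the filter in both tables. The means of Fzd1, Fzd8 and Fzd9 were lower in knockout crypts and higher in knockout tumors, and the groups overlapped except for Fzd8 in tumors. Of the 8 members 0 had an adjusted p under 0.05 (0% of 13370 genes) and 2 had an unadjusted p under 0.05, against 8.47% of all tested genes. The difference of the log2 fold changes (tumors minus crypts) was 0.85 for Fzd8 (standard error 0.274, 95% interval 0.25 to 1.45, limma adjusted p = 0.530). For Fzd9 it was 0.75 (standard error 0.331, 95% interval 0.02 to 1.48, limma adjusted p = 0.582). The crypt values of Fzd8 rested on 25 to 59 fragments in each library. In 12 fits that each left out a library, Fzd8 had an unadjusted p under 0.05 in 12 (0.698 to 1.0) and Fzd9 in 5 (0.549 to 0.935). For Fzd1 the difference was 0.375 (standard error 0.282, limma adjusted p = 0.749). For Fzd6, lower in the knockout in both tissues, the difference was -0.28 (standard error 0.250, limma adjusted p = 0.791). For Fzd5, higher in both, it was 0.26 (standard error 0.207, limma adjusted p = 0.758). Fzd3 and Fzd10 were under the filter in crypts. Without the filter all 10 members entered the test, and Fzd8 and Fzd10 were the 2 with an unadjusted p under 0.05 (1070 of the 25170 genes had one with a positive and 940 with a negative difference). There the difference was 0.85 for Fzd8 (limma unadjusted p = 0.0115), -0.88 for Fzd10 (limma unadjusted p = 0.00808) and 0.75 for Fzd9 (limma unadjusted p = 0.0522), and the lowest adjusted p of the family was 0.538. With 0 to 4 fragments of Fzd10 in each crypt library, its log2 fold change in crypts was 0.000752. Its difference was thus the same as its log2 fold change in tumors. For Fzd10 this test restates the tumor comparison and cannot show whether the effect differed between the tissues.

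Genes that act beside Frizzled receptors were described in 8 lists of 54 genes in all. In crypts 27 of these were tested, 4 were higher and 23 lower in the knockout, and the median log2 fold change was -0.20 (0.01 for all tested genes). By limma 0 had an adjusted p under 0.05, 3 had an unadjusted p under 0.05, all lower in the knockout (2.36% of all tested genes), and 8 did not overlap between the groups (11.9% of all tested genes). In tumors 42 were tested, 16 were higher and 26 lower, with a median of -0.08. Here 0 had an adjusted p under 0.05 by limma, the unadjusted p was under 0.05 for 2 that were higher (8.46% of all tested genes) and 5 that were lower (6.0%), and 9 did not overlap (22.1%).

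The turnover list holds the ligases that remove Frizzled from the surface, the LGR receptors and the R-spondins. In crypts 5 of its 9 genes were tested and all 5 were lower in the knockout (median log2 fold change -0.32, 0 at an unadjusted p under 0.05 by limma). The groups did not overlap for 2 of them (11.9% of all tested genes), the ligase genes Rnf43 and Znrf3. The most abundant was Lgr4, an R-spondin receptor, at 31.3 ± 6.68 FPKM in wild-type and 26.5 ± 1.65 in ieCtnnb1KO crypts (SD, n = 3). In tumors 6 were tested, 2 higher and 4 lower (median -0.19), and 1 higher and 5 lower with all libraries at the same total, with or without the 50 highest genes, or with quantile normalization. Both ligases were lower without overlap in knockout tumors too, where 22.1% of all tested genes did not overlap. Rnf43 had an FPKM of 70.8, 74.0 and 74.5 in APCmin/+ and 59.1, 55.1 and 59.5 in knockout tumors (log2 fold change -0.33, limma adjusted p = 0.269). Znrf3 had 18.1, 15.7 and 21.3 in APCmin/+ and 12.2, 15.0 and 11.7 in knockout tumors (log2 fold change -0.48, limma adjusted p = 0.289).

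The coreceptor list holds LRP5 and LRP6 and the Wnt-binding receptors ROR1, ROR2, RYK, PTK7 and MUSK. In crypts 5 of 7 were tested and all 5 were lower (median log2 fold change -0.10), with Ryk the most abundant (13.7 ± 1.05 in wild-type and 13.3 ± 0.343 in ieCtnnb1KO, SD, n = 3). Ror2, a receptor for Wnt5a, gave FPKM values of 2.18, 2.13 and 1.79 in wild-type and 1.17, 0.999 and 1.14 in ieCtnnb1KO crypts. Its groups were apart by more than the range within either, and its log2 fold change was -0.66 (limma adjusted p = 0.728). In tumors 6 were tested, 3 higher and 3 lower, and the median of 0.02 turned negative with all libraries at the same total, with or without the 50 highest genes, and with quantile normalization. Ptk7 was the most abundant in tumors, with 42.9 ± 4.54 in APCmin/+ and 35.7 ± 4.19 in the knockout (SD, n = 3), and its groups overlapped.

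Dishevelled proteins and their adaptors carry the signal of Frizzled into the cell. In crypts 5 of 7 were tested, 1 higher and 4 lower (median log2 fold change -0.20; 2 and 3 with all libraries at the same total, 0 and 5 without the 50 highest genes), and in tumors all 7 were tested, 3 higher and 4 lower (median -0.10). Dvl1 was the most abundant in both tissues and overlapped between the genotypes, with means of 18.5 and 18.1 in crypts and 25.6 and 28.5 in tumors. Bambi, a pseudoreceptor for TGF-β that also binds Frizzled, gave 2.65, 3.84 and 5.0 in wild-type and 2.46, 2.36 and 2.17 in ieCtnnb1KO crypts (log2 fold change -0.58, limma adjusted p = 0.811). Dact3, a Dishevelled antagonist, had 2.96, 2.07 and 1.95 in APCmin/+ and 3.60, 4.25 and 3.58 in knockout tumors (log2 fold change 0.62, limma adjusted p = 0.274). Neither gene overlapped between the groups there.

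The next list holds inhibitors that act on Wnt ligands or at the receptor, most of them secreted. In crypts 3 of 13 were tested, 1 higher and 2 lower (median log2 fold change -0.165), and Sfrp5, a decoy that binds Wnt, was the most abundant (means 3.99 and 4.54). In tumors 9 were tested, 3 higher and 6 lower (median -0.07), with Wif1, another Wnt-binding inhibitor, at 239 ± 22.1 in APCmin/+ and 213 ± 12.7 in knockout tumors (SD, n = 3). Dkk3, a member of the Dickkopf family, had an FPKM of 54.9, 58.1 and 72.7 in APCmin/+ and 45.8, 44.9 and 49.7 in knockout tumors (log2 fold change -0.39, limma adjusted p = 0.297). Kremen2, a membrane receptor for Dickkopf proteins, had 5.03, 4.74 and 3.62 in APCmin/+ and 6.18, 7.81 and 5.14 in knockout tumors (log2 fold change 0.46, limma adjusted p = 0.336). Wif1 overlapped between the tumor genotypes, and Dkk3 and Kremen2 did not.

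Planar polarity genes work with Frizzled receptors such as Fzd3 and Fzd6 at cell borders. In crypts 4 of 9 were tested and all 4 were lower (median log2 fold change -0.25), 1 of them higher with quantile normalization. Celsr1, an atypical cadherin, was the most abundant, with 2.61, 3.57 and 2.45 in wild-type and 1.85, 1.68 and 2.28 in ieCtnnb1KO crypts (log2 fold change -0.46, limma adjusted p = 0.841). In tumors 7 were tested, 2 higher and 5 lower (median -0.20), and 0 higher and 7 lower with all libraries at the same total. Celsr1 was again the most abundant, at 24.3 ± 1.72 in APCmin/+ and 21.1 ± 1.57 in knockout tumors (SD, n = 3). Vangl1, a core planar polarity protein, had 7.23, 7.75 and 8.84 in APCmin/+ and 6.90, 6.18 and 6.20 in knockout tumors, where the groups were apart but close (log2 fold change -0.28, limma adjusted p = 0.327).

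The last 3 lists were small. Of the 4 partners of Fzd4 in Norrin and Wnt7 signaling, 1 was tested in crypts (median log2 fold change -0.03). In tumors 3 were tested (2 higher and 1 lower, median 0.04). The tetraspanin gene Tspan12 was the most abundant, with means of 7.87 and 7.67 in crypts and 50.6 and 43.4 in tumors. It was the lower one in tumors and did not overlap there (log2 fold change -0.22, limma adjusted p = 0.361), as for 22.1% of all tested genes. Of 4 genes that act on the maturation of receptors, 3 were tested in each tissue, with 1 higher and 2 lower in both (medians -0.27 and -0.11), led by Shisa2 in crypts (7.37 and 6.14) and Apcdd1 in tumors (179 and 110.4). The mean of Apcdd1 in APCmin/+ tumors rested on replicate 3, with an FPKM of 107, 138 and 291 in the 3 libraries. Smo, the Hedgehog signal transducer of the same receptor class as Frizzled, overlapped between the genotypes, with a log2 fold change of 0.03 in crypts, negative when scaled without the 50 highest genes, and of -0.21 in tumors.

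**Figure D5:**
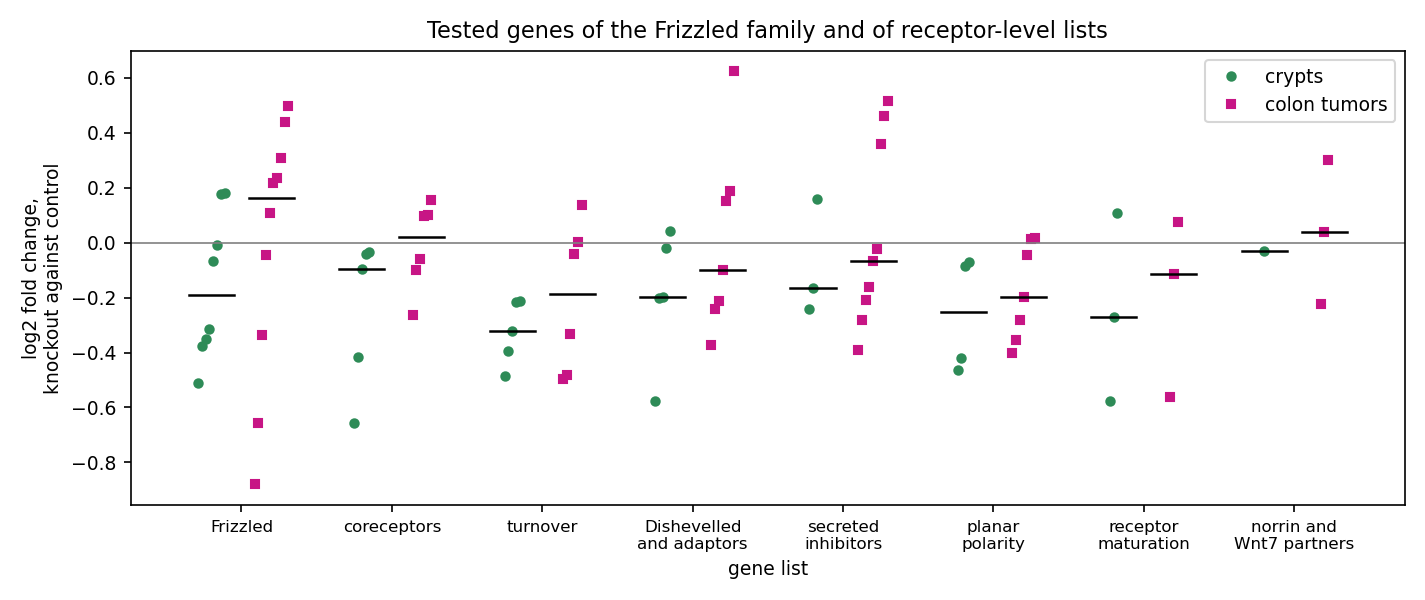
Log2 fold change (knockout minus control, of FPKM + 0.5) of each tested gene of the Frizzled family and of 7 of the lists beside it (Smo is not drawn), in crypts and tumors, with 1 point per gene and a line at the median of each list. The medians lie between -0.32 (turnover list, crypts) and 0.16 (Frizzled family, tumors), and the Frizzled points in tumors run from -0.88 to 0.50.

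Beside the differences in Fzd10, Fzd6, Fzd5 and Fzd8, the summed FPKM of 6 of 11 marker lists did not overlap between the tumor genotypes. These were the epithelial, goblet cell, fibroblast, stem cell, enteroendocrine and endothelial markers. The nearest APCmin/+ and knockout sums almost met for fibroblast (345.1 and 345.9), stem cell (168.1 and 167.3) and endothelial markers (32.52 and 32.72). Whether these sums stay apart under the other scalings was not tested. All 8 epithelial markers were higher in knockout tumors, 7 of them without overlap, and their summed FPKM was 3507, 3380 and 3082 in APCmin/+ and 4019, 3982 and 4116 in knockout tumors (most abundant Krt8). With quantile normalization 6 of the 8 were higher. All 5 goblet cell markers were higher without overlap, with sums of 652, 548 and 538 in APCmin/+ and 1005, 1472 and 1204 in knockout tumors (most abundant Tff3). All 6 fibroblast markers were higher, 3 without overlap, with sums of 345, 216 and 208 in APCmin/+ and 346, 452 and 358 in knockout tumors (most abundant Col1a1). The 4 tested stem cell markers were all lower, 1 without overlap (Axin2, the most abundant). Sums over the list were 168, 194 and 186 in APCmin/+ and 167, 143 and 157 in knockout tumors. The log2 fold changes were -0.325 for Axin2 and -0.498 for Lgr5, but only -0.0852 for Smoc2 and -0.0335 for Ascl2. By limma 0 markers of these last 4 lists had an adjusted p under 0.05, and the unadjusted p was under 0.05 for 3 epithelial, 5 goblet cell, 4 fibroblast and 1 stem cell marker. Among all genes tested in tumors 8.46% were higher and 6.0% lower at that threshold, and 22.1% did not overlap. None of the epithelial, goblet cell, fibroblast and stem cell markers was at 0 in all tumor libraries, and their part in the differences of the Frizzled genes was not tested.

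In crypts, markers of smooth muscle were low, while those of leukocytes were present, with sums between 19.5 and 25.3. The summed FPKM of the 8 epithelial markers was 3641, 4500 and 4782 in wild-type and 3936, 4526 and 4524 in ieCtnnb1KO crypts, and that of the 5 smooth muscle markers was between 0.375 and 0.923 in the 6 libraries. The log2 fold changes of the 7 Paneth cell markers were all negative in ieCtnnb1KO crypts (6 of 7 with quantile normalization). The mean FPKM of Ang4 was nevertheless higher there (1748 against 1647 in wild-type crypts). Of the 7 markers, 2 were lower without overlap (11.9% of all tested genes) and 2 had an unadjusted p under 0.05 by limma (2.36%). The sums of the 7 were 20323, 30155 and 55274 in wild-type and 21938, 19440 and 21343 in ieCtnnb1KO crypts (most abundant Defa24). The sums overlapped, and wild-type replicate 3 stood highest. The Fzd5 level was lowest in that same wild-type library, and whether Paneth cell content bears on the level of Fzd5 was not tested.

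The genes whose pattern over the libraries was most like that of the leading Frizzled gene were named by correlation, as a description without a p. Over the 6 crypt libraries and 12287 genes, Fzd5 was most like Utp11 (Pearson r = 0.992), Tpm3 (0.986) and Terf2ip (0.981). Over the 6 tumor libraries and 14550 genes, Fzd1 was most like Cpz (0.998), Akap7 (0.996) and Ctsh (0.988). With so many genes and 6 libraries that share their genotypes, high values of r occur for some genes whatever their function.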

How the data were processed

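RNA from 12 libraries (RNAiso Plus, NEBNext Ultra II RNA kit) was sequenced as paired-end reads and aligned with HISAT2. The study's methods place this work at Novogene. The authors deposited FPKM per gene and library, 1 table per tissue, without pooling. The submitters' processing notes also name cutadapt, Cufflinks 2.2.1, DESeq2 and mm10, and the study's methods name featureCounts. How FPKM were computed and the strand use in counting are not given in the sources used here. Of the 54532 genes, 54409 were in GENCODE M21 on GRCm38 and 53499 had the same start and end there. The length used for FPKM was 3346 bases for Fzd8, against 5974 for its GENCODE transcript. FPKM multiplied by gene length gave whole fragments (tolerance 0.01) for 100% of values, and limits from fragments cover counting error only.

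Libraries were grouped by the genotype and tissue in their labels. Each tissue was tested with limma 3.58.1 (R 4.3.3) with a variance trend on log2(FPKM + 0.5), over genes whose FPKM averaged 0.5 or more, with Benjamini-Hochberg adjustment over all of them, and the difference between tissues in a fit of all 12 libraries. The authors used DESeq2 on counts, and limma stands in because the deposited values are FPKM. Exact two-sided permutation tests used SciPy 1.17.1 in Python 3.11.15, and coding sequences were aligned with Biopython 1.88 using GENCODE transcripts. The procedure was tested on simulated data.

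All 10 Frizzled genes are named. The lists were Smo, coreceptors, turnover, Dishevelled and adaptors, secreted inhibitors, Norrin and Wnt7 receptor partners, planar polarity and receptor maturation. Named from each were the most abundant tested gene per tissue and, because adjustment left no gene under 0.05, genes with an unadjusted p under 0.05 and no overlap. Marker lists covered epithelium, stem, Paneth, goblet, enteroendocrine and tuft cells, fibroblasts, smooth muscle, endothelium, leukocytes, and enteric neurons and glia. 1 result on a marker list is not reported here. Likeness was Pearson's r of log2(FPKM + 0.5) over genes whose FPKM averaged 1 or more. The members and lists were chosen with earlier results of these data known. The motif GGGCGG and the promoters to print were chosen after the sequences and levels had been seen.

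Alternatives were a pseudocount of 0.1 or 1, no filter or one at a mean FPKM of 1, scaling to a common total with or without the 50 highest genes, median-of-ratios scaling, quantile normalization, no variance trend, robust moderation, all 12 libraries in 1 fit, the replicate number as a block, voom on recovered fragments, leaving out each library, and shares by fragments. For the difference between tissues, the scalings and leaving out each library were chosen after seeing the data.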

Additional observations from a re-analysis of the deposited data

How the results depend on the processing

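Over all alternatives, 142 of 151 crypt, 187 of 188 tumor and 144 of 152 between-tissue log2 fold changes of Frizzled genes kept their direction, and 0 had an adjusted p under 0.05. Fzd10 (-1.02 to -0.70), Fzd6 (-0.81 to -0.54) and Fzd5 (0.35 to 0.52) in tumors had an unadjusted p under 0.05 in each fit that held them (18, 19 and 19), Fzd8 (0.38 to 0.62) in 15 of 19 fits and in 2 of 6 that left out a library. The lowest adjusted p over these fits was 0.172, 0.202, 0.2 and 0.245 and the highest 0.595, 0.595, 0.595 and 0.598. Crypt Fzd2 turned to 0.0112 (same total), 0.0681 (quantile normalization) and 0.00345 (voom), with -0.17 to 0.18 when a library was left out (0.09 without wild-type replicate 1, 0.05 without wild-type replicate 2). Crypt Fzd1 turned to 0.00365 with quantile normalization and ranged from -0.19 to 0.13 (0.13 without wild-type replicate 3, 0.06 without knockout replicate 2). Tumor Fzd7 ranged from -0.13 to 0.01 (0.0129 without APCmin/+ replicate 3). The difference between tissues of Fzd4 turned to -0.0186 (same total) and -0.0134 (quantile normalization) and ranged from -0.155 to 0.142 when a library was left out, that of Fzd2 from -0.0748 to 0.279. The cause was not tested. The 0 crypt Frizzled genes with an unadjusted p under 0.05 became 1 without the filter (Fzd3), at the same total and without the 50 highest genes (Fzd9) and with all 12 libraries in 1 fit (Fzd7), and 0 to 1 when a library was left out (Fzd6 without wild-type replicate 1, Fzd9 without wild-type replicate 3 or knockout replicate 3). The 4 in tumors ranged from 3 to 6 (6 without APCmin/+ replicate 1), and with all 12 libraries in 1 fit, where Fzd10 and Fzd3 were under the filter, 3 of 8 remained. Genes with an adjusted p under 0.05 were 0 to 3 in crypts when a library was left out (3 without wild-type replicate 3), 1 in tumors without the variance trend or with all 12 libraries in 1 fit, and 1 between tissues with a pseudocount of 0.1, where the 2 Frizzled genes became 1, as in 7 of 12 fits that left out a library (1 to 2). Counted by fragments, not per length, the share of Fzd5 was 66.2% in wild-type and 73.0% in knockout crypts, and that of Fzd1 30.9% in knockout tumors. At an unadjusted p under 0.05, 494 genes were higher and 335 lower in knockout crypts, and 314 and 474 without the 50 highest genes. In tumors 1417 and 1004 became 1075 and 1344 (same total), 1072 and 1353 (without the 50 highest genes) and 1116 and 1282 (quantile normalization). With the replicate block, 0 genes had an adjusted p under 0.05 in crypts and 0 in tumors by limma, and 0 and 4 Frizzled genes had an unadjusted p under 0.05. Same-numbered libraries did not deviate together (r from -0.122 to 0.037 in crypts and -0.0898 to 0.0541 in tumors), so the numbers were not used as pairs. Depth limits Fzd10 and Fzd3 in crypts, where Fzd8 also had few fragments (25 to 59 in each library).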

Other observations

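The other marker lists give the cell types around the Frizzled genes. In crypts 1 of 5 stem cell markers, Axin2, was lower in the knockout without overlap, and all 5 goblet and all 4 tuft cell markers overlapped. The sums of the stem cell list were 1024, 822 and 584 in wild-type and 1025, 862 and 772 in ieCtnnb1KO crypts. The sums of the goblet list were 3032, 5038 and 4477 in wild-type and 2818, 3379 and 4270 in ieCtnnb1KO crypts. Of 6 enteroendocrine markers 5 were lower in ieCtnnb1KO crypts, 2 of them without overlap (11.9% of all tested genes), and their sums of 182, 172 and 252 against 127, 176 and 167 overlapped. The tuft cell sums were 16.6, 24.6 and 22.4 in wild-type and 14.9, 13.9 and 33.8 in ieCtnnb1KO crypts. Sums of the fibroblast list were 5.92, 3.59 and 5.0 in wild-type and 1.73, 4.64 and 2.50 in ieCtnnb1KO crypts, led by Dcn. Sums of the endothelial list (0.787 to 1.05 in wild-type and 0.687 to 0.764 in ieCtnnb1KO crypts, without overlap) and of the neuron and glia list (0.28 to 0.661) were low in the crypt libraries.

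In tumors, all 7 Paneth cell markers were higher in the knockout (6 of 7 with all libraries at the same total, 5 of 7 with quantile normalization) with sums that overlapped, at 1841, 1941 and 2148 in APCmin/+ and 2775, 4264 and 1588 in knockout tumors. The 5 tested enteroendocrine markers were all higher (4 with all libraries at the same total), and their sums of 12.4, 14.5 and 10.9 against 16.0, 21.3 and 15.1 did not overlap. Endothelial sums were 32.5, 30.7 and 27.4 in APCmin/+ and 35.1, 33.8 and 32.7 in knockout tumors, also without overlap, with 4 of 5 markers higher. The smooth muscle (121 to 171), leukocyte (33.9 to 53.5), tuft cell (34.1 to 64.1) and neuron and glia (2.70 to 3.38) sums overlapped between the tumor genotypes. By limma 0 genes of these lists had an adjusted p under 0.05 in either tissue. At an unadjusted p under 0.05 were 2 Paneth cell, 2 enteroendocrine, 1 stem cell and 1 fibroblast marker in crypts (5.85% of all tested genes) and 1 smooth muscle and 1 endothelial marker in tumors (14.5%).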
